A study of Homo sapiens with 12 samples.

Results

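Regions of open chromatin that lie beside the centromeres and on the short arms of acrocentric chromosomes are described here. They were chosen by position only: a region was taken when its hg38 start fell in 1 of 10 windows. These were 120 to 150 Mb of chromosome 1, 86 to 97 Mb and 130 to 133 Mb of chromosome 2, 56 to 66 Mb of chromosome 7, 38 to 70 Mb of chromosome 9, 25 to 31 Mb of chromosome 20, and the starts of chromosomes 14 (under 20.5 Mb), 15 (under 23 Mb), 21 (under 15 Mb) and 22 (under 19.5 Mb). The windows held 807 of the 30170 regions of the count table. Of the 807, 14 matched mitochondrial DNA over at least 40 bases at 80% identity or more and are reported apart, which left 793.

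ATAC-seq was performed on HCT116, a human colorectal cancer line, and on its derivatives. ATAC-seq uses the Tn5 transposase to place sequencing adapters in accessible DNA, so that the read count of a region follows its accessibility. There were 4 groups of 3 libraries: empty-vector control (EV), EHF, CDX1, and EHF plus CDX1 (EHF+CDX1). EHF is an ETS-family transcription factor of epithelial cells and CDX1 a homeobox transcription factor of the intestine.

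EHF was expressed from a pcDNA3.1 plasmid in geneticin-resistant clones, and CDX1 from an MSCV retrovirus in cells sorted for GFP. The double line was the CDX1 line transfected again with the EHF plasmid and selected with geneticin, so the EHF+CDX1 cells had passed through both procedures, while the study's methods describe the empty vector only for the plasmid transfection. Clonal selection and the added factors cannot be told apart in these groups. Nothing states that the 3 libraries of a group came from separate cultures, so the p-values below measure the spread between these libraries, which may be technical. The introduced genes followed the labels: regions over EHF exons held 91907 to 1536042 counts in the lines given EHF and 30 to 100 in the others, and those over CDX1 exons held 77147 to 1916479 against 18 to 104.

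DNA beside centromeres and on acrocentric short arms consists largely of segmental duplications and satellite arrays. Alpha satellite is the repeat of the centromere itself, and some of its units carry the box bound by CENP-B. Satellites II and III are built of diverged GGAAT units. The acrocentric short arms carry the tandem rDNA that is transcribed into the ribosomal RNA precursor. Many copies of mitochondrial DNA, called nuclear mitochondrial inserts, also lie in these blocks. Short reads from near-identical copies are difficult to place, so a count in such a region may include reads of other copies, and copies absent from the assembly add to it.

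The sequences below show the kinds of DNA that the results turn on, in hg38 and on the plus strand. The first are 3 regions that were higher in EHF+CDX1 cells, with GGAAG (the core of ETS sites), TTTATG and TTTATT (forms of the caudal homeobox site) in capitals on either strand. For ZNF736, a zinc finger gene, the stretch before the annotated exon is given (chr7:64313820-64313872). The second lies at the start of the noncoding gene ENSG00000227910 (chr7:63926316-63926489). The third lies in an intron of PIP5K1B, a phosphatidylinositol phosphate kinase gene (chr9:68740706-68740856).
ZNF736: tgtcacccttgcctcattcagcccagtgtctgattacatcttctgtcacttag
ENSG00000227910: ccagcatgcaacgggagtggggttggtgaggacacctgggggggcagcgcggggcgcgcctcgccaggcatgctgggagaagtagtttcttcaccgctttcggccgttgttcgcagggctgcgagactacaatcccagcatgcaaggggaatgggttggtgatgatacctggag
PIP5K1B: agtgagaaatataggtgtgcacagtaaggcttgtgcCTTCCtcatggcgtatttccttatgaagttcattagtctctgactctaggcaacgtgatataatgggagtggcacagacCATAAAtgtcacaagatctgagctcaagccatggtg
The letters searched were absent from the first and second sequences and were found at 2 places in the third.

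Highly repeated regions with many counts are shown next. GGAAT on either strand is in capitals in the first pair, the highest region of the chromosome 20 window (chr20:28495428-28495595) and of the chromosome 1 window (chr1:125180095-125180289). In the third (chr20:28497749-28497912) capitals mark the core of a CENP-B box on the minus strand.
Chromosome 20: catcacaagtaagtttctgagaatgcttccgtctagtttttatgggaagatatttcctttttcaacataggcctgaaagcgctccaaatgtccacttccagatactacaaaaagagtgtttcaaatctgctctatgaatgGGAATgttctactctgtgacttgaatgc
Chromosome 1: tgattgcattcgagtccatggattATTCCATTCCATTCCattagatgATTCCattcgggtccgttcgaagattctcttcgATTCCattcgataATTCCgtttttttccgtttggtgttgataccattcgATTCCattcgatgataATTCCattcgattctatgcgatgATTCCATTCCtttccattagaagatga
CENP-B box region: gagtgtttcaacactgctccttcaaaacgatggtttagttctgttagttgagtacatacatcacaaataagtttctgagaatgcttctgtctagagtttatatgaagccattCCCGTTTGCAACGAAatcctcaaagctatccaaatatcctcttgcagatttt
GGAAT was found at 10 places in the region of chromosome 1 and at 1 in that of chromosome 20.

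The last 3 are the highest region of the rDNA (chr21:8434043-8434273), a region in the mitochondrial pseudogene MTND5P7 (chr7:57194408-57194560), and the highest of the regions reported apart (chr2:87824853-87825008), in which capitals mark the 119 bases that matched mitochondrial DNA at 98.3% identity.
rDNA: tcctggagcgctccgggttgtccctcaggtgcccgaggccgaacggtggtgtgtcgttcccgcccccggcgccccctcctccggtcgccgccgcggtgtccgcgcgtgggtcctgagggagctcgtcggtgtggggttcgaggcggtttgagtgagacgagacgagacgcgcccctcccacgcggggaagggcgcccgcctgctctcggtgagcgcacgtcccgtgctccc
MTND5P7: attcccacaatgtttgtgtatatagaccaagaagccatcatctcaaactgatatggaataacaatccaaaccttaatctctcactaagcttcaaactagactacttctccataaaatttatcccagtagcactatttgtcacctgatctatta
MTATP8P2: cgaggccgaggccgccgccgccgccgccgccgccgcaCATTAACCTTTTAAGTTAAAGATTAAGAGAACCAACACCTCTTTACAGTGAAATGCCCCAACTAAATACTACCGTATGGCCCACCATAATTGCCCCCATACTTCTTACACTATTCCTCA

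The pericentromeric and acrocentric regions differed from the other 29174 regions, those outside the windows, the mitochondrial matches and the exons of EHF and CDX1, in what they consist of. Intergenic regions made up 56.5% of the 793 and 29.6% of the others, and 35.8% (284) lay within 1 kb of an annotated transcript start, against 46.5%. Their median GC content was 52.3% against 56.3%. Their median length, counting both end positions, was 156 bases against 151. These shares describe fixed sets of regions and were not tested.

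Repeated sequence separated them most. Each region was cut into overlapping words of 32 bases, and a word was counted as repeated when it occurred more than once in hg38 on either strand. Repeated words were present in 575 of the 793 regions (72.5%) and in 13.7% of the other regions. In 191 (24.1%) over 90% of the words were repeated, which held for 354 of the others (1.21%). A tandem pair of GGAAT units, searched on both strands of the central 150 bases, was found in 79 regions (9.96%) against 0.978% of all 30170 regions. The CENP-B box was found in 32 (4.04%) against 0.272%. Among the site cores, AGGAAGT was found in 4.16% against 5.4%, CGGAAGT in 2.02% against 3.78%, TTTATG in 12.5% against 7.3% and TTTATT in 6.43% against 8.03%.

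Counts were unevenly spread over the regions. Levels are given as CPM, in which counts were divided by library totals adjusted with trimmed mean of M-values (TMM) factors. The median level of the members was 6.59 CPM over the 12 libraries, against 4.38 CPM for the other regions. The region with the most counts held 6.08% of all counts in the 793, the first 10 held 25.9% and the first 100 held 60.2%. Levels are not divided by length, and most regions were about as long as each other, so these comparisons of level are per region. The highest level, 980 CPM, was in MTND5P7, which matched mitochondrial DNA over 146 bases at 76.7% identity and so fell under the identity set for the regions reported apart. Next came a region of the chromosome 20 window at 792 CPM, whose words occurred a median of 813 times in hg38. Others were a region 15.2 kb from IGKV2D-40, an immunoglobulin kappa variable gene, at 319 CPM, a region in ANKRD20A7P at 298 CPM, and the GGAAT-rich region of chromosome 1 at 192 CPM.

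**Figure D1:**
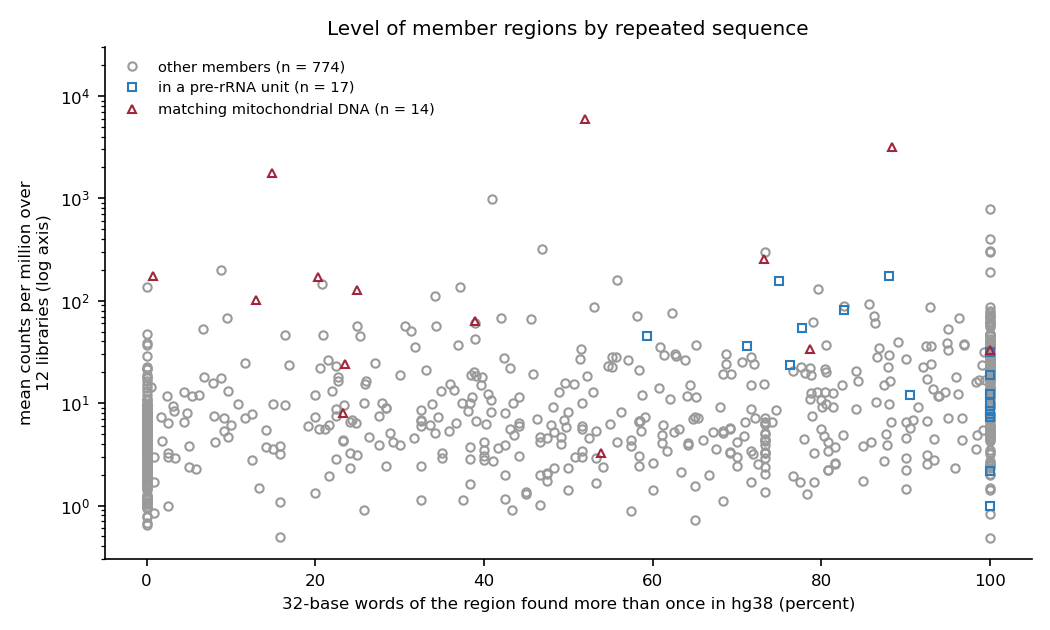
Points are the 791 tested regions and the 14 mitochondrial matches, with the percent of 32-base words that occur more than once in hg38 on the horizontal axis and the mean level over 12 libraries in CPM on a log vertical axis. Regions of the pre-rRNA units and the 14 mitochondrial matches are marked. The 218 regions with no repeated words had a median of 4.42 CPM, and the 189 with over 90% repeated words had 16.3 CPM.

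The regions took between 4.29% and 9.08% of the counts that a library held outside mitochondrial matches and the exons of EHF and CDX1. In EV the share was 9.08% in replicate 1, 6.20% in replicate 2 and 8.79% in replicate 3. The EHF values were 7.59%, 4.29% and 6.39%, in CDX1 8.35%, 4.699% and 7.51%, and in EHF+CDX1 8.48%, 5.25% and 5.76%. Replicate 2 was the lowest of its group in every group, and the groups overlapped. Within each replicate number EV had the highest share. The means were 8.02 ± 1.59% (SD, n = 3), 6.09 ± 1.67%, 6.85 ± 1.91% and 6.498 ± 1.74%.

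Depth differed between the libraries. The table summed to 567366 to 2443334 counts per library, of which 148300 to 912672 were outside the mitochondrial matches and the exons of the introduced genes. The deepest of these, EHF+CDX1 replicate 2, held 59.2% of that group's counts. A count of 3 corresponded to 0.677 to 4.51 CPM, and the median region held 5 to 28 counts in a library, so differences in most regions were not detectable at this depth unless large.

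The share of counts in each of the 10 windows was compared among the 4 groups with an exact permutation test of the F statistic, over the 15400 ways to divide 12 libraries into 4 groups of 3. No window passed. The p-values ran from 0.337 to 0.987, and were 0.894 to 0.987 after Benjamini-Hochberg adjustment over the 10 windows. Within replicate numbers (576 arrangements) the exact p-values ran from 0.0295 to 0.929 and the lowest adjusted value was 0.139. For all windows together the exact permutation p was 0.601, and 0.0503 within replicate numbers. The labels do not state that these numbers mark a shared batch.

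The chromosome 21 window took 1.44 ± 0.441% of the counts in EV, 1.22 ± 0.253% in EHF, 1.45 ± 0.353% in CDX1 cells and 1.33 ± 0.466% in EHF+CDX1. The chromosome 20 window took 1.39 ± 0.284%, 1.06 ± 0.349%, 1.11 ± 0.361% and 1.17 ± 0.315% in the same order. The chromosome 1 window took 1.25 ± 0.323%, 0.851 ± 0.267%, 0.991 ± 0.333% and 0.917 ± 0.281%. These 3 windows held the largest shares in EV, and in each the ranges of the groups overlapped.

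The windows also differed in kind. In the second chromosome 2 window 62.5% of the regions lay within 1 kb of a start and the median region had no repeated words, and its share, 0.178 ± 0.0577% in EV, was highest in replicate 2 of every group. On chromosome 22, 16.2% lay near a start and the median region had 64.6% repeated words. The chromosome 7 window was dominated by MTND5P7. Without this region and 2 similar copies (MTND5P6 on chromosome 7 and MTND5P29 on chromosome 2), an alternative added after the data were seen, its share was 0.202 ± 0.0211% in EV, 0.156 ± 0.00378% in EHF, 0.180 ± 0.0214% in CDX1 cells and 0.223 ± 0.0258% in EHF+CDX1, with an exact permutation p of 0.0145 and an adjusted p of 0.145.

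**Figure D2:**
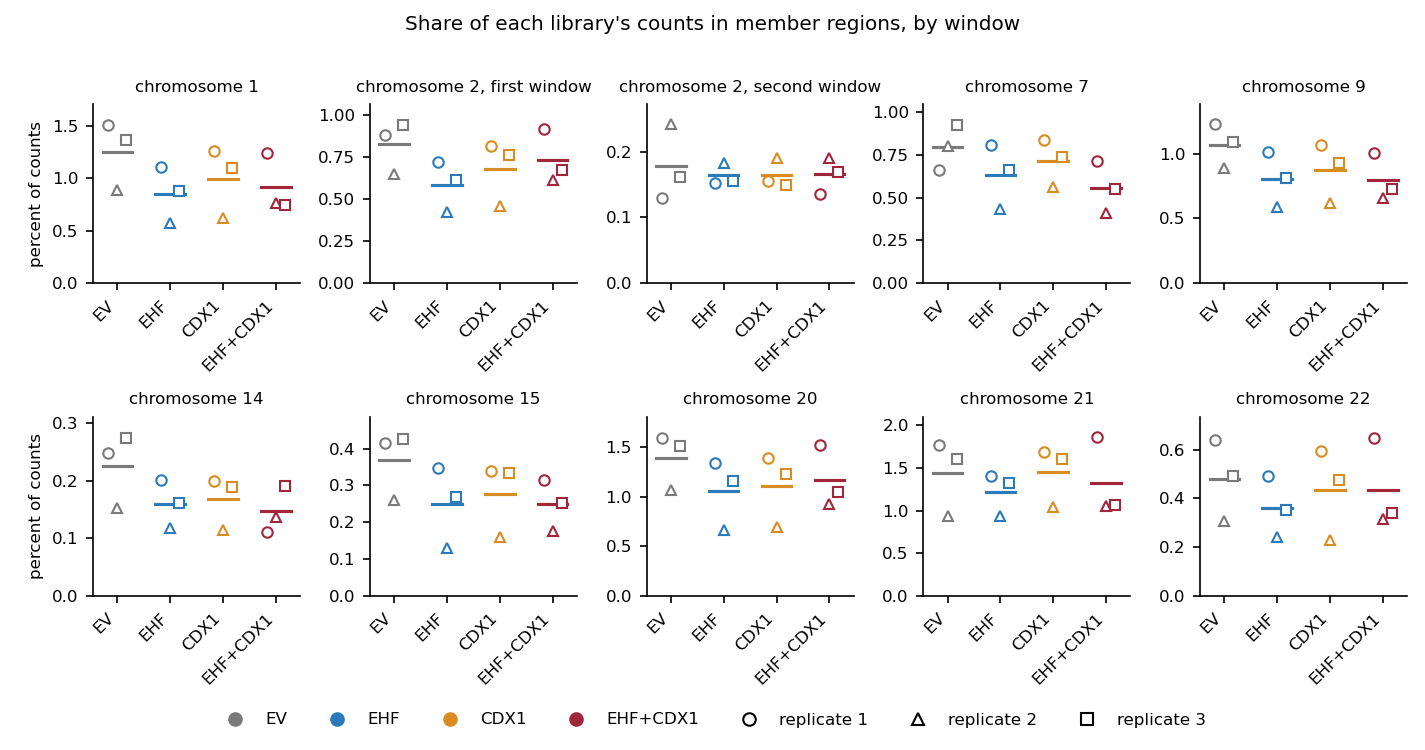
Points are libraries and show the percent of the counts used that fell in each of the 10 windows, by group; horizontal bars are group means and symbols mark the replicate number. Replicate 2 lies at the bottom in most windows, and at the top in the 130 to 133 Mb window of chromosome 2 (the second), where its share was 0.183 to 0.242%.

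Single regions were compared with edgeR's quasi-likelihood test on the counts, fitted over 30154 regions with adjusted p-values (Benjamini-Hochberg) over all of them. A region was called when its adjusted p was under 0.05. Of the 793, 791 passed the filter on low counts, and the other 2, beside the rDNA of chromosome 21, held 10 counts each over the 12 libraries. In EHF against EV no member was called, beside 3 of all 30154 regions (0.00995%), and the smallest adjusted p of a member was 0.268. All 3 were higher, and none was among the 29164 tested regions outside the windows, the mitochondrial matches and the exons of EHF and CDX1. In CDX1 against EV no member was called either, beside 0 of all regions (0%), with a smallest adjusted p of 1. At an unadjusted p under 0.05 there were 88 and 35 members (11.1% and 4.42%), beside 4.96% and 3.81% of all tested regions. DESeq2, voom and limma-trend also called 0 in both, and over the 24 alternatives run the number ran from 0 to 19 in EHF and was 0 in CDX1. The 19 came from a fit with a block for the replicate number, for which the share of all regions called is not given here.

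The fitted changes in the single-factor lines were mostly below 0. The median log2 fold change of the members was -0.44 in EHF against EV and -0.30 in CDX1 against EV, beside 0.01 and 0.00 over all regions. In EHF 72.6% of the members were below 0 and in CDX1 68.5%. For EHF+CDX1 against EV the member median was -0.07, beside 0.18 over all regions, and 54.9% of the members were below 0. The difference between the member median and that of all regions kept its sign in every alternative run, from -0.612 to -0.215 for EHF and from -0.527 to -0.0739 for CDX1. The values nearest 0 came without the second library of EHF and of CDX1, and those farthest from it without the second EV library. Scaling by total count without TMM moved the median of all regions itself to -0.50 for EHF and -0.65 for CDX1. These are medians over regions that share sequence and libraries, and the shares of counts above overlapped between the groups.

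The shift went with repeated sequence. The 218 members with no repeated words had medians of -0.03 in EHF and -0.06 in CDX1. The 384 with some repeated words, up to 90%, had -0.55 and -0.32, and the 189 tested with over 90% had -0.56 and -0.42. Outside the windows, the 352 tested regions with over 90% repeated words had -0.48 and -0.30, and the 25178 with none had 0.06 and 0.03. For EHF+CDX1 against EV the medians of the member classes, in the same order, were 0.31, -0.10 and -0.42. Outside the windows they were -0.11 with over 90% repeated words and 0.18 with none. Single libraries moved these values. Less the median of all regions, the members with over 90% repeated words had -0.58 in EHF and -0.42 in CDX1. Without EHF replicate 2 the first was -0.23, without CDX1 replicate 2 the second was -0.081, and without EV replicate 2 they were -0.95 and -0.72. With all libraries, in EHF and in CDX1 the pericentromeric regions rich in repeats had medians near those of repeat-rich regions elsewhere.

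In EHF and CDX1 the satellite regions had lower medians than the repeated members as a whole. For the 79 regions with tandem GGAAT units the median was -0.81 in EHF, -0.45 in CDX1 cells and -0.24 in EHF+CDX1, all against EV, and for the 32 with a CENP-B box it was -0.78, -0.68 and -0.78. All 32 were below 0 in each of the 3. No region of either kind was called in EHF or CDX1 against EV. As a share of counts the tandem GGAAT regions took 1.45%, 0.765% and 1.32% in EV replicates 1 to 3, 1.01%, 0.429% and 0.715% in EHF, 1.24%, 0.497% and 1.09% in CDX1 cells, and 1.42%, 0.752% and 0.781% in EHF+CDX1. The groups overlapped, and replicate 2 was lowest in every group. Within each replicate number EV was the highest and EHF the lowest. The CENP-B box regions took 0.545 to 0.917% in EV and 0.257 to 0.664% in EHF, again with the lowest value in replicate 2.

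**Figure D3:**
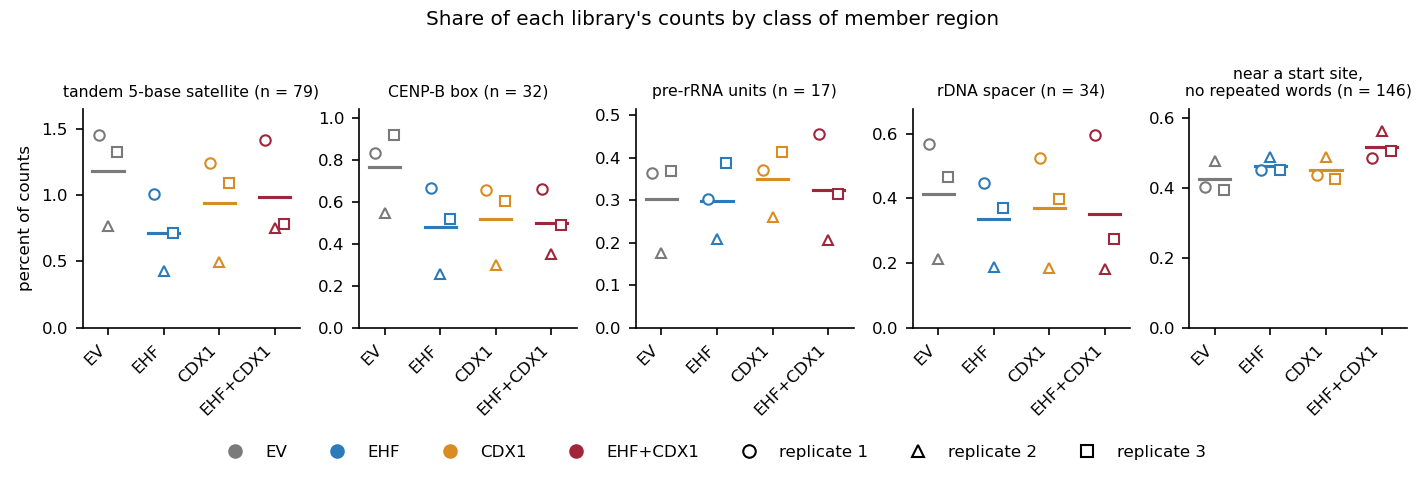
Points are libraries and show the percent of the counts used in 5 kinds of member region, by group, with bars at group means. The satellite classes are lowest in replicate 2 of every group, while regions within 1 kb of a start with no repeated words took 0.478 to 0.563% in replicate 2 and 0.395 to 0.507% in replicates 1 and 3.

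**Figure D4:**
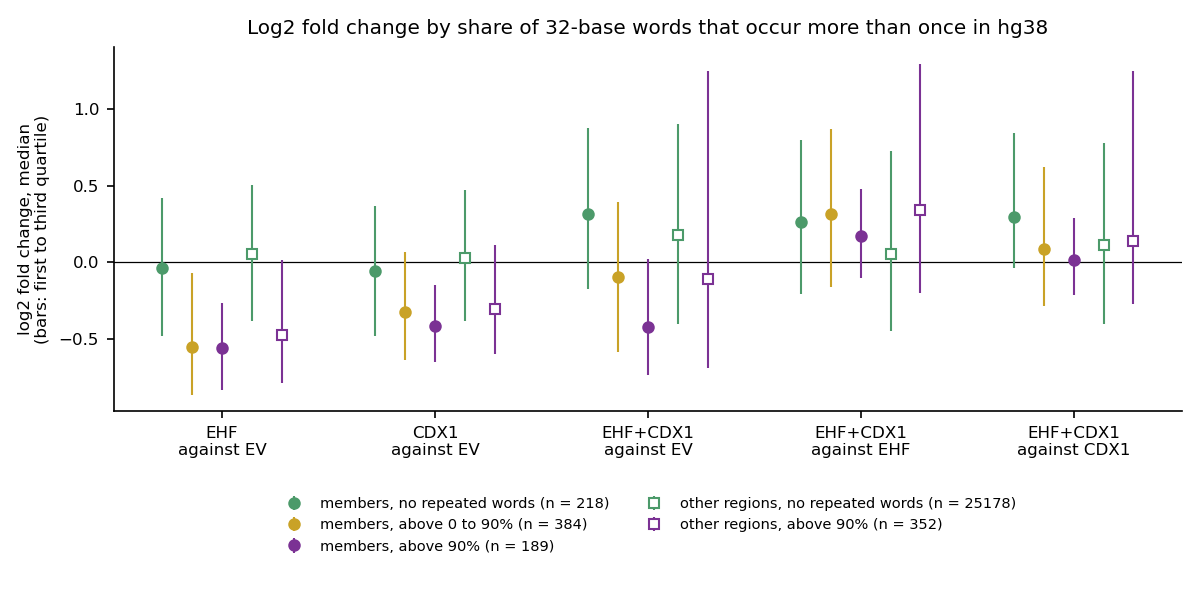
The log2 fold change is shown in 5 comparisons (the 3 lines against EV, and EHF+CDX1 against EHF and CDX1) for regions grouped by repeated words, inside and outside the windows, as medians with quartiles. Inside the windows the medians in EHF against EV were -0.03 with no repeated words and -0.56 with over 90% repeated words.

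Depth and the share of counts near starts also differed between the libraries. Replicate 2 held 311536 to 912672 of the counts used and was the deepest of its group in every group, and its share of counts in the members was the lowest. The share of counts within 1 kb of a start in the other regions was 42.9 to 45.4% in EV and 48.2 to 53.0% in EHF. It was 46.2 to 52.1% with CDX1 alone and 47.1 to 53.3% with both factors. Within groups it did not follow the member share throughout: EHF+CDX1 replicate 2 had the lowest of its group in both. The part of either in the shift was not tested. Reads of satellite arrays also follow the number of copies that a cell carries, which cannot be told apart from accessibility in these counts.

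The rDNA was measured at 3 copies of the precursor unit on chromosome 21, RNA45SN2 (chr21:8205988-8219302), RNA45SN3 (chr21:8389035-8402343) and RNA45SN1 (chr21:8433222-8446572), as placed by RefSeq on hg38. They held 7, 5 and 5 regions, and 34 more lay between them or within 40 kb. The highest region, printed above, had 159 ± 61.2 CPM in EV, 170 ± 40.9 in EHF, 197 ± 39.97 in CDX1 cells and 178 ± 80.8 in EHF+CDX1. Its fitted difference was 0.10 ± 0.47 (log2, SE) in EHF against EV and 0.31 ± 0.47 in CDX1 against EV (edgeR adjusted p = 1 for both). The 17 regions in the units took 0.302 ± 0.110% of the counts in EV, 0.299 ± 0.0895% in EHF, 0.349 ± 0.0790% in CDX1 cells and 0.325 ± 0.125% in EHF+CDX1. None of the 17, or of the 32 of the 34 that passed the filter, was called in any comparison.

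The medians of the 17 were -0.04 in EHF, 0.10 in CDX1 cells and 0.07 in EHF+CDX1 against EV. For the 32 tested around them they were -0.35, -0.21 and -0.34. The rDNA units therefore lay near the median of all regions in the single-factor lines, while the spacer lay nearer to the repeat-rich members. The units share sequence, and assembled copies are few beside those in a cell. Only uniquely mapped reads were retained, and whether the values stand for the rDNA as a whole was not tested.

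In EHF+CDX1 cells single regions passed the test. Against EV, 12 members were higher and 5 lower (1.52% and 0.632% of the members tested), beside 1.79% and 0.779% of all regions. Against EHF, 21 were higher and 2 lower (2.65% and 0.253%), beside 3.65% and 0.7% of all. Against CDX1, 18 were higher and 2 lower (2.28% and 0.253%), beside 2.06% and 0.541%. The shares of members called were thus near or below the background. The 3 comparisons share the EHF+CDX1 libraries. In all, 28 members were called, 23 higher and 5 lower, with 10 higher and 2 lower in each of the 3 comparisons.

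The 23 higher members were mostly weak. Their mean levels ran from 0.947 to 7.49 CPM, and 14 had at most 3 counts in every library of the other groups. Peaks of all samples were merged and the filter asked for 3 CPM in only 1 library, so a region could enter through EHF+CDX1 alone. In such regions, low counts elsewhere and groups that do not overlap are in part set by that entry and are not separate evidence. EHF+CDX1 replicate 2, the deepest library, gave 43.97 to 92.9% of that group's counts in them (median 75.3%), against 59.2% of the counts used. After scaling for depth the highest level was in replicate 2 for 16 of them and in replicate 1 for 7. Without replicate 2, 25 of the 28 called members could be tested and 5 were still called. These were 2 regions of chromosome 7, 1 of chromosome 20, and the lower regions of chromosome 21 and FAM230F described below. Checked in 1 comparison each (against EV where called there), 4 of the 28 kept the call whichever single library was left out, 2 of chromosome 7 (at ZNF736 and ENSG00000227910) and the lower regions chr21:10325737-10325909 and chr22:18892387-18892561. In the same comparisons, every one of the 28 kept its direction in each alternative in which it could be fitted.

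Of the 23 higher members, 7 lay in 524 kb of chromosome 7, a stretch bounded by the first and last of them. It held 8 of the 793 regions and 2 of the mitochondrial matches. This stretch carries ZNF736, of the KRAB zinc finger family, and several noncoding genes. All 7 were within 1 kb of a start, and 6 had no repeated words. The eighth, at the start of ENSG00000287699 (chr7:64300727-64300877), had 0.501 ± 0.868 CPM in EV and 2.59 ± 2.26 in EHF+CDX1 and was not called.

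The ZNF736 region printed above (chr7:64313820-64313987, at a start of several transcripts) had 1, 0 and 0 counts in EV, 0, 3 and 0 in EHF, 1, 2 and 0 in CDX1 cells, and 29, 48 and 18 in EHF+CDX1. Every EHF+CDX1 library lay above every other library. The ratio of scaled counts was 39.3 against EV (exact 95% counting interval 6.88 to 1566), 20.1 against EHF (6.68 to 99.3) and 17.1 against CDX1 (5.69 to 84.5). Such intervals cover counting error only, and do not allow for the entry of a region through EHF+CDX1 alone. The edgeR adjusted p-values were 7.1e-05, 9.5e-06 and 6.5e-05, and without EHF+CDX1 replicate 2 the adjusted p against EV was 0.00048. The call against EV was lost with scaling by total count (adjusted p = 0.092) and with limma-trend on the deposited log2 CPM (0.33).

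A second region, at the upstream start of ZNF736 (chr7:64307353-64307503), had 1 count over the EV libraries, 0 in EHF and CDX1, and 8, 63 and 2 in EHF+CDX1. It was at least 5.15-fold higher than in EHF and at least 4.39-fold higher than in CDX1, taking 3 counts per library as the floor and pooling the libraries. Without EHF+CDX1 replicate 2, an omission added after the data were seen, these bounds were 1.79 and 1.52. Replicate 2 held most of these counts, and without it the edgeR adjusted p against EV was 0.40. This call was also lost without any EV library. A further region, 590 bases from a ZNF736 start (chr7:64306719-64306869), had 7, 22 and 1 counts in EHF+CDX1, and was called only against EHF, where it was at least 2.12-fold higher, or 1.43-fold without EHF+CDX1 replicate 2 (edgeR adjusted p = 0.033). That call was lost without any EHF library or either of EHF+CDX1 replicates 1 and 2.

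The region at ENSG00000227910 was the most abundant of the group. It had 0, 0 and 1 counts in EV, 0, 2 and 0 in EHF, 2, 0 and 1 in CDX1 cells, and 38, 120 and 15 in EHF+CDX1. The ratio was 71.5 against EV (12.7 to 2839), 54.9 against EHF (14.98 to 457) and 31.2 against CDX1 (10.5 to 153). The groups did not overlap, and the edgeR adjusted p-values were 1.6e-07, 3e-09 and 2e-07. Leaving out EHF+CDX1 replicate 2 gave 0.00021 against EV, and limma-trend on the deposited log2 CPM lost that call (adjusted p = 0.14).

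A pair of regions lay at LINC02848 and ENSG00000236299, also noncoding genes. The region at ENSG00000236299 (chr7:63900740-63900890) had 1 count in EV, 0 in EHF and CDX1 and 12, 67 and 10 in EHF+CDX1, and was at least 6.28-fold higher than in EHF and 5.35-fold higher than in CDX1 (3.93 and 3.35 without EHF+CDX1 replicate 2). The region at LINC02848 (chr7:63900177-63900327) had 1, 3 and 0 counts over the 3 other groups and 9, 45 and 4 in EHF+CDX1. Both were called in all 3 comparisons, and both lost the call against EV without EHF+CDX1 replicate 2 (edgeR adjusted p = 0.14 and 0.31) or without EV replicate 2, and LINC02848 also without EV replicate 3 or EHF+CDX1 replicate 1. The seventh, 19 bases from a start of ENSG00000227397 (chr7:63789740-63789890), had 4, 27 and 1 counts in EHF+CDX1 and was called against EHF only, a call lost without any EHF library or EHF+CDX1 replicate 1.

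On chromosome 9, 2 of the higher members lay within 1 kb of a start of PIP5K1B, whose product makes the signalling lipid phosphatidylinositol 4,5-bisphosphate. The intronic region printed above had 0, 1 and 0 counts in EV, 2, 0 and 1 in EHF, 1, 1 and 2 in CDX1 cells, and 9, 66 and 6 in EHF+CDX1. It was called in all 3 comparisons, with a ratio of 33.5 against EV (5.84 to 1338) and 17.1 against EHF (5.66 to 84.9), and a fitted log2 difference of 3.01 ± 0.78 against CDX1 (edgeR adjusted p = 0.0043, 0.0029 and 0.015). All 3 EHF+CDX1 libraries lay above the rest. The region at the first start (chr9:68705059-68705209) had 16, 39 and 0 counts in EHF+CDX1 and 1 in all other libraries together. It was called against EHF and CDX1, at least 3.88-fold and 3.31-fold higher, but replicate 3 overlapped the other groups. Without EHF+CDX1 replicate 2 the ratios of the intronic region were 15.7 against EV and 8.05 against EHF. Both lost the call without that library, with adjusted p = 0.23 for the intronic region against EV and 0.091 for the other against EHF.

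Of the other higher members, the largest counts were in repeated sequence beside the chromosome 20 centromere, 41.7 kb from the nearest annotated start. The region chr20:28644535-28644710, all of whose words are repeated, had 4, 5 and 2 counts in EV, 9, 8 and 6 in EHF, 3, 5 and 3 in CDX1 cells, and 52, 51 and 13 in EHF+CDX1. It was higher by 2.24 ± 0.52 against EV, 1.72 ± 0.46 against EHF and 2.60 ± 0.52 against CDX1 (log2, SE, edgeR adjusted p = 0.0066, 0.014 and 0.00076). All 3 EHF+CDX1 libraries were above the others in CPM. It remained called without replicate 2 of EHF+CDX1 (adjusted p = 0.011), but not without replicate 1 of that group or replicate 2 of EV.

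A region within 1 kb of it (chr20:28645422-28645610) shared 141 bases with it at 85.1% identity and was called against EHF (1.94 ± 0.55, edgeR adjusted p = 0.024) and CDX1 (2.04 ± 0.59, adjusted p = 0.035). In EV it had 6, 8 and 4 counts, and in EHF+CDX1 24, 35 and 10. The call against EHF was lost without any EHF library or EHF+CDX1 replicates 1 or 2. It also shared 152 bases at 86.2% identity with a region of chromosome 9 (chr9:60659108-60659340). That region was called lower in EHF+CDX1 cells, but against EV only, so no single comparison called them in opposite directions.

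Next to genes with known functions, a region in an intron of NINL, a centrosomal protein (chr20:25508211-25508361), had 7, 18 and 2 counts in EHF+CDX1 and was called against EHF. A region in an intron of LIPI, a lipase gene (chr21:14166832-14166982), had 6, 37 and 2 counts in EHF+CDX1 and 1 in all other libraries together, and was called in all 3 comparisons. A region 10.7 kb from AMER3 (chr2:130744652-130744802) had 12, 45 and 2 counts in EHF+CDX1 and was called against EHF and CDX1. The NINL call against EHF was lost when any of 7 single libraries was left out (EV replicate 3, each EHF library, CDX1 replicate 1, and EHF+CDX1 replicates 1 and 2). For AMER3 against EHF these were 6, the same without the CDX1 library. The LIPI call against EV was lost without any EV library or EHF+CDX1 replicate 1, and the region failed the filter without replicate 2.

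The other 9 higher members were intergenic or in noncoding genes of chromosomes 9, 20, 21 and 22, with 32 to 96 counts over the EHF+CDX1 libraries. Among these, chr21:10770163-10770313 and chr9:40916187-40916337 shared 142 bases at 90.8% identity, and the first had 4, 79 and 2 counts in EHF+CDX1, so that replicate 2 held 92.9% of them. Of the 23 higher members, AGGAAGT occurred in the central 150 bases of 1, CGGAAGT of 0, TTTATG of 2 and TTTATT of 1.

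The smallest adjusted p of any member belonged to a lower region. The region chr21:10325737-10325909, intergenic and 4.8 kb from the pseudogene EIF3FP1, had 57, 58 and 32 counts in EV, 24, 77 and 37 in EHF, 40, 45 and 54 in CDX1 cells, and 4, 7 and 0 in EHF+CDX1. All 3 EHF+CDX1 libraries were below every other library. In CPM the means were 50.2 ± 11.4, 29.0 ± 6.25, 41.3 ± 21.2 and 1.32 ± 1.21. It was lower by -5.01 ± 0.50 against EV, -4.23 ± 0.50 against EHF and -4.697 ± 0.50 against CDX1 (log2, SE, edgeR adjusted p = 1.1e-14, 1.8e-10 and 6.3e-13).

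The same region was the only member called for the interaction of EHF and CDX1, the part of the double line's change that the sum of the single-factor changes leaves. 1 of the 791 members was called, beside 0.123% of all regions. Its interaction was -3.92 ± 0.63 (log2, SE, edgeR adjusted p = 3.4e-05), while its changes in EHF (-0.78 ± 0.37) and CDX1 (-0.31 ± 0.37) against EV did not pass (adjusted p = 0.96 and 1). The call against EV held in all 24 alternatives. The interaction call was lost when counts were scaled by total without TMM, when the deposited log2 CPM were used, and when replicate 3 of every group was left out.

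Its neighbours were not called lower. Within 100 kb, chr21:10368515-10368665 had 2.60 ± 2.96 CPM in EV and 4.53 ± 4.03 in EHF+CDX1, and chr21:10401050-10401200 had 2.29 ± 2.85 and 4.45 ± 1.07. A further region, chr21:10403137-10403341, had 3, 5 and 5 counts in EV and 31, 46 and 5 in EHF+CDX1 and was called higher against EHF and CDX1. In the lower region 62.7% of the words are repeated, and its words occur a median of 2 times in hg38. A loss of accessibility and a loss of DNA copies cannot be told apart in these counts.

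FAM230F, a noncoding gene, held the other lower region called in all 3 comparisons. The region in its intron (chr22:18892387-18892561) had 42, 41 and 18 counts in EV, 16, 62 and 22 in EHF, 47, 44 and 40 in CDX1 cells, and 11, 35 and 2 in EHF+CDX1. It was lower by -2.49 ± 0.40 against EV, -1.76 ± 0.40 against EHF and -2.62 ± 0.40 against CDX1 (edgeR adjusted p = 1.2e-05, 0.0032 and 1.3e-06), and the groups did not overlap in CPM. Without EHF+CDX1 replicate 2 the adjusted p against EV was 0.00022, and the call was lost with scaling by total count (0.23) and with limma-trend (0.070).

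A second region, 1.8 kb from a FAM230F start (chr22:18896228-18896445), had 52, 39 and 21 counts in EV, 22, 58 and 17 in EHF, 48, 42 and 20 in CDX1 cells, and 17, 77 and 15 in EHF+CDX1. This region shared 126 bases at 93.7% identity with the lower region chr21:10325737-10325909, and whether reads were shared between the 2 was not tested. Against EV it was lower by -1.48 ± 0.37 (edgeR adjusted p = 0.014), and it was not called against EHF or CDX1. That call was lost when the first EV library or either of the first and second EHF+CDX1 libraries was left out. The nearest member at a coding gene, the start of DGCR6 (chr22:18906143-18906370), had 10.9 ± 3.55 CPM in EV and 8.04 ± 3.86 in EHF+CDX1.

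The last 2 lower members were satellite regions called against EV only. A GGAAT-rich block of chromosome 1 (chr1:125173964-125174131) had 36, 29 and 37 counts in EV and 45, 38 and 12 in EHF+CDX1, a difference of -1.33 ± 0.37 after scaling (edgeR adjusted p = 0.032). A region of chromosome 9 (chr9:60659108-60659340), whose words occur a median of 438 times in hg38, had 29, 28 and 25 counts in EV and 27, 43 and 12 in EHF+CDX1, a difference of -1.29 ± 0.37 (adjusted p = 0.033). Raw totals were 102 in EV and 95 in EHF+CDX1 for the first and 82 in both for the second. The calls therefore rest on the scaling for depth. The counts used per library were 148300 to 311536 in EV and 253819 to 912672 in EHF+CDX1. Each call was lost when any of these was left out: replicates 1 and 3 of EV and replicates 2 and 3 of EHF+CDX1.

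Gene starts in the windows were grouped by what the genes do. Zinc finger genes, whose products bind DNA and in many cases recruit the KAP1 repressor, had 14 regions at 13 genes. Against EV, EHF and CDX1, 2, 3 and 2 of them were higher in EHF+CDX1 and none was lower, beside 1.79%, 3.65% and 2.06% of all regions higher. All of these were at ZNF736. At the others counts were present in every group: ZNF107 had 14, 29 and 12 counts in EV and 27, 90 and 36 in EHF+CDX1, and ZNF680 had 7, 54 and 8 and 18, 95 and 23. The list's median log2 fold change was 0.33 against EV, 0.51 against EHF and 0.35 against CDX1, beside 0.18, 0.09 and 0.13 over all regions.

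Core duplicon families, gene families such as NBPF, SRGAP2, ANKRD36 and FRG1 that expanded with the segmental duplications, had 18 regions at 16 genes. None was called in any comparison, and the medians were 0.10 in EHF, 0.08 in CDX1 cells and 0.25 in EHF+CDX1 against EV. SRGAP2C had 10, 26 and 18 counts in EV and 28, 114 and 24 in EHF+CDX1, or 18.7 ± 8.07 and 20.8 ± 4.61 CPM.

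The histone genes of the chromosome 1 window had 3 regions at 4 genes, with no call. The region at H2BC21, which encodes a histone H2B, had 8, 9 and 6 counts in EV and 22, 64 and 24 in EHF+CDX1. In CPM this region had 8.01 ± 1.55 and 15.8 ± 3.64. The histone list had a median of 0.98 in EHF+CDX1 against EV, over 3 regions.

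Genes of RNA processing, translation and protein folding had 10 regions at 7 genes, and none was called. They included CCT6A, a subunit of the TRiC chaperonin, with 17, 38 and 13 counts in EV and 45, 126 and 30 in EHF+CDX1. Another was RBM8A, of the exon junction complex, with 9, 6 and 6 and 14, 25 and 10. DNA repair and cell division genes had 19 regions at 11 genes, and none was called. Among them were APEX1, the base-excision endonuclease, with 8, 17 and 6 counts in EV and 12, 42 and 13 in EHF+CDX1, and CDC45, a subunit of the replicative helicase, with 7, 9 and 7 and 13, 19 and 10. These counts are not scaled for depth. In CPM, APEX1 had 9.85 ± 1.65 in EV and 9.13 ± 1.86 in EHF+CDX1, and RBM8A had 7.68 ± 3.09 and 7.42 ± 1.54. The medians of the lists of this paragraph in EHF+CDX1 against EV were 0.01 and 0.00.

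The 14 members that matched mitochondrial DNA held more counts than most others. The highest, at MTATP8P2 on chromosome 2, had 6468, 9135 and 7116 counts in EV, 7524, 9135 and 8130 in EHF, 6945, 8939 and 5662 in CDX1 cells, and 6912, 9209 and 6922 in EHF+CDX1, a mean of 5979 CPM. A region of chromosome 21 (chr21:10014842-10015018), identical to mitochondrial DNA at 98.8% of 160 bases, had a mean of 3197 CPM. MTND2P6 (chr7:57186299-57186450) had 1782 CPM, MTCO3P7 (chr2:130277868-130278021) 257 and MTND2P4 (chr7:64111499-64111657) 174. These are copies of mitochondrial genes in nuclear DNA, and reads of the organelle itself can be counted in them.

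Against EV, 3 of the 14 were lower in EHF+CDX1, beside 0.779% of all regions, and none was called in any other comparison. All 14 passed the filter. The called regions were MTCO3P7 (-1.59 ± 0.48, edgeR adjusted p = 0.046), chr2:94899064-94899230 (-1.69 ± 0.43, adjusted p = 0.016) and chr22:11856745-11856905 (-1.32 ± 0.39, adjusted p = 0.039). The number called fell to 0 when EHF+CDX1 replicate 2 or either of replicates 2 and 3 of EV was left out, and was 2 to 4 without any other library. The median of the 14 was -0.67 in EHF, -0.52 in CDX1 cells and -1.16 in EHF+CDX1 against EV. All mitochondrial matches of the table, 192 regions, took 65.1 to 73.9% of the counts outside the exons of EHF and CDX1 in EV and 40.1 to 58.9% in EHF+CDX1. Of the 14 members 92.9% had a fitted change below 0 in EHF+CDX1 against EV, and the part of that share in their change was not tested.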

How the data were processed

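ATAC-seq libraries were prepared from HCT116 lines with the Nextera Tn5 kit. Per the study's methods, the authors used Subread to align reads to hg38 and retained those that mapped uniquely. They called and merged peaks with HOMER and counted them with featureCounts. The submitters' processing notes give versions 2.0.0, 4.7 and 2.0.0 for these tools. The deposited table holds raw counts per region, and the authors' sample files hold log2 CPM. Removal of duplicates and read shifting are not given in the sources used here. Groups and replicate numbers came from the sample titles. Annotation was GENCODE v44 and RefSeq on hg38, and mitochondrial matches were found with BLAST+ 2.17.0. Regions that reached 3 CPM in 1 library or more were kept, which is the filter of the study's methods. For this filter CPM was taken without TMM. Counts were then scaled with TMM and tested with edgeR 4.0.16 (glmQLFit and glmQLFTest) over the 4 groups, with Benjamini-Hochberg adjustment over 30154 regions. Shares of counts were compared with exact permutation tests, which are two-sided by construction. The tests were checked on simulated data. Alternatives were DESeq2 1.42.0, limma 3.58.1 (voom and trend), other scalings and filters, a replicate block and omission of libraries. The sequences of some regions are not reported here.

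The windows were given by position, and the windows, gene lists and named regions were chosen with earlier results of these data known. Named regions were called members (up to 8 higher and 8 lower per comparison by fold change), members called for the interaction, the 2 highest regions of each window, the 5 highest mitochondrial matches, and regions within 1 kb of listed genes' starts. The other called regions and the neighbours within 100 kb were named after their values were seen.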

Additional observations from a re-analysis of the deposited data

Results flagged for a closer look

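The region chr21:10325737-10325909 differed between groups: the log2 change of the double line differed from the sum of those of the single-factor lines. Its interaction was -3.92 on the log2 scale (edgeR adjusted p = 3.4e-05), with 147 counts over the EV libraries, 138 over EHF, 139 over CDX1 and 11 over EHF+CDX1. The interaction call was lost without TMM, with the deposited log2 CPM, and without replicate 3 of every group. The added factors, clonal selection and a loss of DNA copies cannot be told apart here.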

How the results depend on the processing

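Checked in 1 comparison each, every called member kept its direction wherever it could be fitted, which was in 19 to 24 of the 24 alternatives. The number called depended on the settings, and these counts are given without the share of all regions called in the same setting. They describe how stable the calls were and do not set the members apart from other regions. In EHF+CDX1 against EV (17 called), against EHF (23) and against CDX1 (20), DESeq2 called 4, 4 and 6, scaling by total count without TMM 2, 9 and 11, a filter of at least 10 counts in 3 libraries 6, 4 and 6, and limma-trend on the deposited log2 CPM 1, 2 and 3. Voom with quantile normalisation called 12 against CDX1. Omitting 1 library gave 5 to 30, 6 to 33 and 6 to 28, and omitting 1 replicate number of every group 7 to 12, 5 to 15 and 6 to 19. The lowest in each came without EHF+CDX1 replicate 2 or without replicate 2 of every group. The interaction (1) gave 0 without TMM, 0 with limma-trend, 2 with voom, 1 to 2 without 1 library and 0 to 1 without 1 replicate number. EHF against EV gave 0 to 1 in both kinds of omission, and CDX1 against EV gave 0 throughout. A match of 100 bases at 90% left 3 of the 14 mitochondrial members, and no window differed under any alternative. A count of 3 corresponded to 0.677 to 4.51 CPM. The cause of these differences was not tested.

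Replicate numbers are not stated to mark a shared batch. Of 18 same-number pairs, 4 had deviations correlated over 0.1 (range -0.0045 to 0.259), although each of the 12 libraries was closest to its own number. With the replicate block, 19 members were called in EHF against EV, 65 in EHF+CDX1 against EV, 37 against EHF, 29 against CDX1 and 9 for the interaction. The shares of all regions called with the block are not given here, so whether the members rose more than the rest was not tested.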
